A study of Homo sapiens with 64 samples.

Results

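Of the 54127 genes counted by RNA sequencing, 10 genes were followed here that mark differentiated enterocytes and colonocytes, the absorptive cells that line the intestine. They were AQP8, SLC26A3, CA1, CA2, FABP1, ALPI, VIL1, CDHR5, SI and GUCA2A. The 10 were chosen by name, not by a value measured in these samples, though with earlier results of these data known. The 64 samples came from 6 established colorectal cancer cell lines, HT55, SW948, RKO, SW48, DLD1 and HCT15. In 48 of them, cells of each line had been stained with CFSE, a dye that is diluted when a cell divides, grown as floating spheroids with bFGF and EGF and sorted on day 6 into LRCs, the label-retaining and little-dividing cells, and non-LRCs, the cycling cells that had lost the dye. Each line gave 4 replicates of each population. The other 16 samples were DLD1 controls in 4 groups of 4, labeled as CFSE or DMSO and as day 1 or day 5; the design text gives day 6 for the later time and describes the controls as bulk populations. All samples were cultured cancer cells, so no group held normal epithelium, and every sorted group, non-LRCs included, had been exposed to CFSE.

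Absorptive cells arise from dividing crypt cells that leave the cell cycle as they move up the crypt wall. Their apical face is folded into a brush border, whose microvilli hold actin bundled by VIL1 and are linked at their tips by cadherins such as CDHR5. The cells carry hydrolases, lipid-binding proteins, ion exchangers and water channels, and in the colon SLC26A3, CA1, CA2 and AQP8 serve chloride, bicarbonate and water transport. Intestine-enriched transcription factors, among them CDX2, HNF4A and GATA factors, are known regulators of this program.

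Between 12237225 and 20913455 reads per sample lay on genes, and levels are given as CPM, counts scaled by TMM to a common depth. Epithelial identity genes (EPCAM, CDH1, KRT8, KRT18, CDH17, GPA33) summed to 2404 to 16219 CPM in the sorted libraries of 5 lines and to 196 to 306 CPM in RKO. By counts over all genes, some libraries lay closer to a library of another group than to their own, and those named next bear on the results. The libraries labeled HT55 LRC replicate 2 and HT55 non-LRC replicate 2 differed from each other by a mean chi-square of 3.73 per gene, against 26.3 and 30.6 to the nearest library of their own groups. The library labeled SW948 LRC replicate 4 differed from SW948 non-LRC replicate 4 by 3.06 and from the nearest SW948 LRC library by 14.6. The control library labeled DMSO day 1 replicate 4 differed from DMSO day 5 replicate 3 by 5.28 and from the nearest DMSO day 1 library by 54.8. Tested results of the members that rest on these libraries are given with and without them, a choice made after seeing the data. The methods call replicates biological without saying what was separate between them, so p-values measure the spread between these samples.

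For 6 members the reference held a promoter sequence, and those of SLC26A3, FABP1, GUCA2A and AQP8 are shown, members with enough reads to test that stood highest in HT55 or in HT55 and SW948. Each runs from 250 bases before to 50 bases after the RefSeq gene start (GRCh38.p14), 5′ to 3′ on the gene's strand, with capitals marking letters that match short motifs of intestinal regulators, or the TATA box, on either strand.
SLC26A3: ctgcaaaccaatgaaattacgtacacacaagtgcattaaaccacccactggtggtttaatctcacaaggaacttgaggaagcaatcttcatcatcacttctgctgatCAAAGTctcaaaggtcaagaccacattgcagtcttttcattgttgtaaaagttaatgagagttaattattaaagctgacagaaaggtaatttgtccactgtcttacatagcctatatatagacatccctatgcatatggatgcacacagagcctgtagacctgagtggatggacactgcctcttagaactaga
FABP1: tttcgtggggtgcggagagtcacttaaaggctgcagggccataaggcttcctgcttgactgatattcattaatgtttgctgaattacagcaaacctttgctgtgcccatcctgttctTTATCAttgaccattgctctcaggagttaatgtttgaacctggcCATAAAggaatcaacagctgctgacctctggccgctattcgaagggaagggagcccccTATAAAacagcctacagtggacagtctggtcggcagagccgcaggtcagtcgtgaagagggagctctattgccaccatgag
GUCA2A: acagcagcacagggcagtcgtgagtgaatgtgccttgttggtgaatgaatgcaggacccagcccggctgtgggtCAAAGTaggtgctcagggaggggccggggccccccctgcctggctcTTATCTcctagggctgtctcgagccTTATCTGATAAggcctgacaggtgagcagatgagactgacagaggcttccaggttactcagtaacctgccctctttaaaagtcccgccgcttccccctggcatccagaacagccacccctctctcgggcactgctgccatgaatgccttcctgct
AQP8: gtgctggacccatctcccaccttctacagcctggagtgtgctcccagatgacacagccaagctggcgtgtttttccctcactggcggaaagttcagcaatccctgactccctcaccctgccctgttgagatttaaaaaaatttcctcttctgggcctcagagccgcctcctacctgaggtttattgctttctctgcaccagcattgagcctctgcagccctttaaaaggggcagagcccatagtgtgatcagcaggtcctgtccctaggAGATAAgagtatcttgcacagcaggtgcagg

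For CDX factors the letters searched were TTTATG, which 10.6% of 35116 RefSeq promoters of this length hold on either strand. The GATA form AGATAA is in 10.3% of promoters, and the form TGATAA in 7.53%. For HNF4 they were CAAAGT, in 11.9% of promoters. The TATA box was searched as TATAAA, found in 11.5% of promoters. The SLC26A3 promoter (chr7:107803174-107803473, minus strand) held a single match, CAAAGT at 143 bases before the start. The FABP1 promoter (chr2:88128013-88128312, minus strand) held TGATAA at 133 bases before the start, TTTATG at 89 and TATAAA at 31. The GUCA2A promoter (chr1:42164696-42164995, minus strand) held AGATAA at 130 and 105 bases before the start, TGATAA at 100, which shares a base with the match at 105, and CAAAGT at 176. The AQP8 promoter (chr16:25216697-25216996, plus strand) held AGATAA alone, at 20 bases after the start. These are matches of letters in a short window, and binding was not measured.

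The lines fell far apart in how many of the markers they carried, and HT55 and SW948 carried the most. A mean of at least 1 CPM was reached by 5 members in HT55 non-LRCs and by 6 in HT55 LRCs, by 6 in both SW948 populations, by 4 in HCT15 non-LRCs and 3 in HCT15 LRCs, by 2 in SW48 and in DLD1, and by 1, CA2, in RKO. The level in non-LRCs differed among the 6 lines for all 8 members that could be tested (edgeR's quasi-likelihood test with Benjamini-Hochberg adjustment, largest adjusted p = 6.06e-07 for AQP8), where 97.7% of all 16603 genes tested also differed. CA1 and SI had too few reads for any test.

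**Figure D1:**
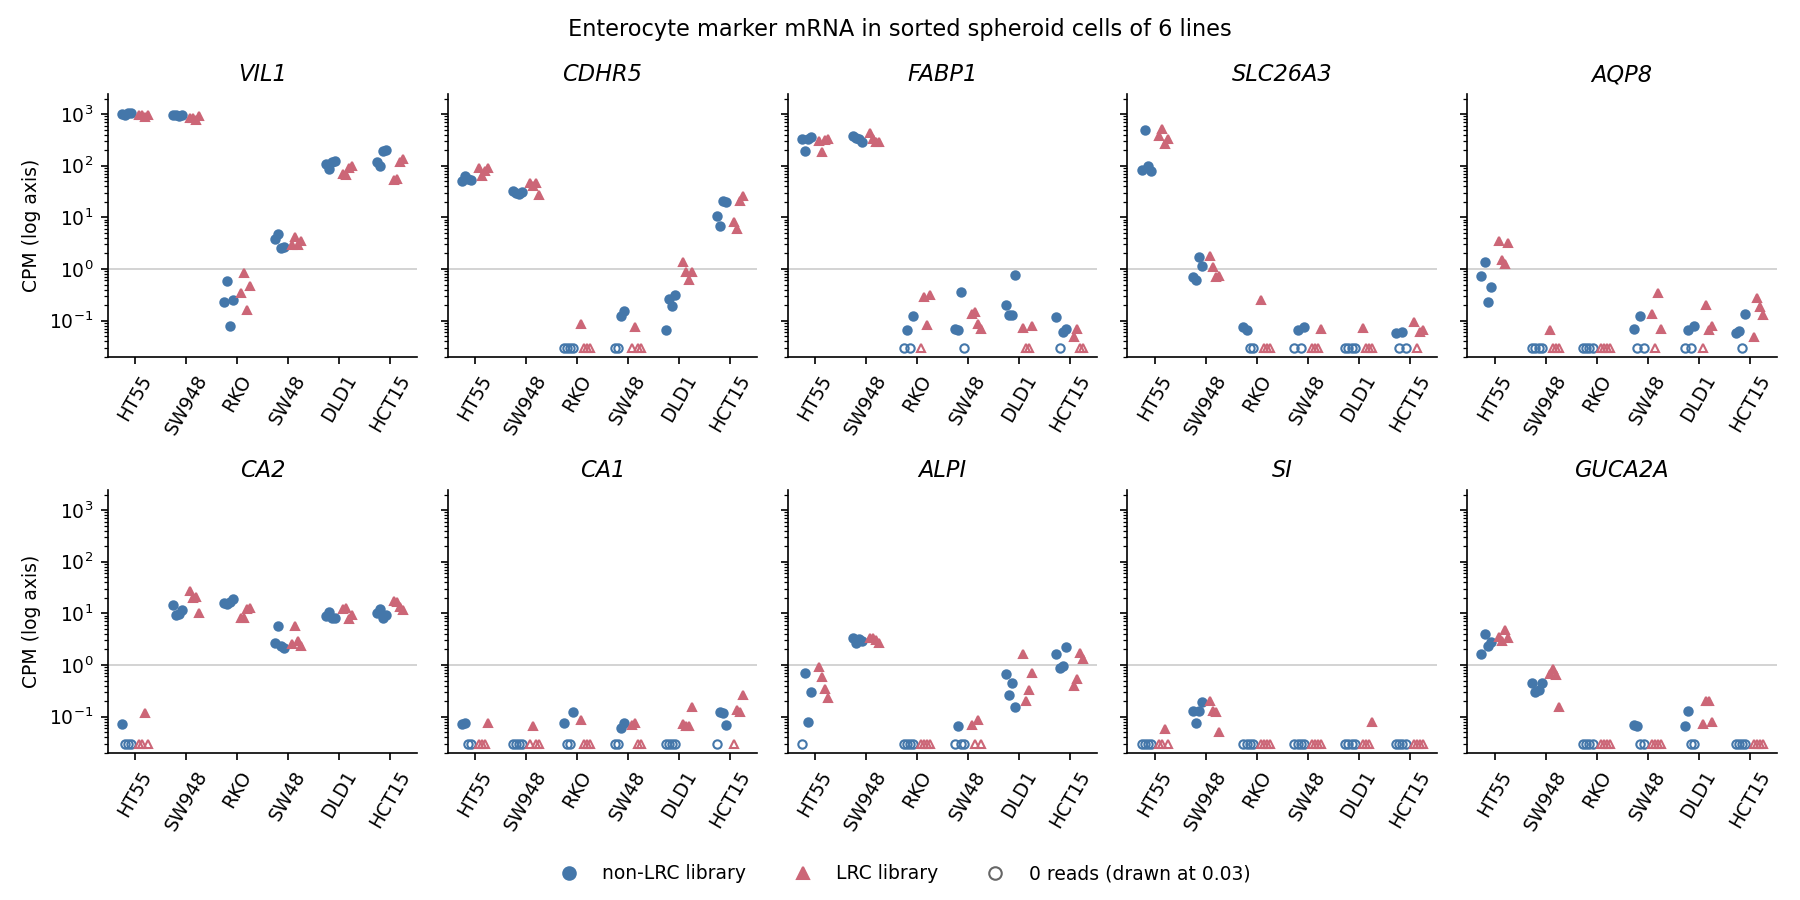
Level of each of the 10 members in every sorted library, in CPM on a log axis (vertical), by cell line (horizontal), with LRCs and non-LRCs as separate symbols, libraries with 0 reads as open symbols at the bottom and a gray line at 1 CPM. VIL1 and FABP1 stand highest in HT55 and SW948, SLC26A3 in HT55, and CA2 lies above 1 CPM in every line but HT55.

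VIL1 (ENSG00000127831; GRCh37 chromosome 2, 219283844 to 219318018, plus strand), the actin-bundling protein of microvilli, reached its highest levels in HT55 and SW948. In HT55 its 4 non-LRC libraries held 1009, 967, 1028 and 1065 CPM (mean 1017 ± 40.7, SD, n = 4). In SW948 they held 963, 945, 898 and 938 CPM (936 ± 27.3). These lines were neighbors in the order of levels and did not differ by the test (log2 difference 0.09, adjusted p = 0.684). HCT15 (152 ± 49.6 CPM) lay 2.63 log2 units under SW948 (adjusted p = 4.47e-15), and DLD1 (108 ± 15.7 CPM) lay 0.47 under HCT15 (adjusted p = 0.0489) with overlapping values. SW48 held 3.42 ± 1.03 CPM, and RKO between 0.0784 and 0.583 CPM, the last of 6 lines that each differed from the next except for the first pair. VIL1 shares 3045 exon bases with USP37 on the opposite strand. USP37 held 36128 counts in all and VIL1 267301, and whether reads were counted by strand is not given in the sources used here.

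CDHR5 (ENSG00000099834; GRCh37 chromosome 11, 616577 to 626078, minus strand), a protocadherin of the links between microvillus tips (14.2 RPKM, a level set per kilobase of exon, in HT55 non-LRCs against 148 RPKM for VIL1), followed the same order of lines down to DLD1. Non-LRCs held 50.3, 62.7, 54.2 and 52.7 CPM in HT55 (mean 55 ± 5.40, n = 4) and 32.9, 29.4, 28.7 and 31.6 CPM in SW948 (30.6 ± 1.94), groups that did not overlap (log2 difference 0.82, adjusted p = 0.00529). HCT15 held 14.5 ± 6.96 CPM, 1.09 log2 units under SW948 (adjusted p = 0.000452), with 10.4 and 6.79 CPM in replicates 1 and 2 and 21.2 and 19.5 CPM in replicates 3 and 4. In DLD1 the 4 non-LRC libraries held 1, 4, 3 and 4 reads, 6.06 log2 units under HCT15 (adjusted p = 3.22e-13). In RKO and SW48 at most 4 reads were found over a group, and neighbors in the order DLD1, SW48 and RKO were not called different (adjusted p = 0.356 and 0.283).

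FABP1 (ENSG00000163586; GRCh37 chromosome 2, 88422501 to 88427581, minus strand), the liver-type fatty acid-binding protein of absorptive cells, was divided between lines more sharply than any other member by the fitted gap. Non-LRCs held 329, 196, 336 and 352 CPM in HT55 (303 ± 71.9, n = 4, or 339 ± 11.6 without replicate 2) and 384, 341, 324 and 282 CPM in SW948 (333 ± 42.0), with no difference called between them (log2 0.16, adjusted p = 0.389). The next line, DLD1, lay 9.95 log2 units under HT55 (adjusted p = 3.40e-30), and no sorted library of the other 4 lines exceeded 0.782 CPM. Per kilobase of exon, FABP1 and VIL1 lay close together in these lines: FABP1 reached 126 ± 29.8 RPKM and VIL1 148 ± 5.91 RPKM in HT55 non-LRCs, and 138 ± 17.4 and 136 ± 3.97 RPKM in SW948 non-LRCs.

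SLC26A3 (ENSG00000091138; GRCh37 chromosome 7, 107405912 to 107443670, minus strand), the apical chloride and bicarbonate exchanger of the colon, was found mainly in HT55. Its non-LRC libraries there held 80.8, 491, 98.4 and 79.5 CPM, from 1115, 6420, 1274 and 1075 reads. Replicate 2, one of the libraries nearest to the other population, was more than 4 times the rest, and the group mean was 187 ± 203 CPM with it and 86.2 ± 10.5 CPM (n = 3) without it. SW948 non-LRCs held 1.03 ± 0.494 CPM, 7.44 log2 units lower (adjusted p = 8.97e-18), and no sorted library of the other 4 lines exceeded 0.253 CPM.

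AQP8 (ENSG00000103375; GRCh37 chromosome 16, 25227052 to 25240253, plus strand), a water channel of surface colonocytes, was found above a trace only in HT55 among these libraries. Its HT55 non-LRC libraries held 10, 18, 3 and 6 reads (0.694 ± 0.498 CPM, or 0.467 ± 0.247 without replicate 2), 3.30 log2 units over HCT15, the next line (adjusted p = 0.000169). No sorted library of another line exceeded 0.351 CPM, and all 8 RKO libraries held 0 reads.

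Guanylin, the peptide encoded by GUCA2A (ENSG00000197273; GRCh37 chromosome 1, 42628361 to 42630416, minus strand), acts on the guanylate cyclase receptor of the gut lining. HT55 non-LRCs held 1.67, 3.98, 2.32 and 2.74 CPM (2.67 ± 0.974), above every SW948 non-LRC library (0.300 to 0.450 CPM, log2 difference 2.75, adjusted p = 2.54e-07). SW948 in turn lay 2.70 log2 units over DLD1 (adjusted p = 0.00170). RKO and HCT15 held 0 reads, where 3 reads over a group would have been 0.0446 to 0.0522 CPM.

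CA2 (ENSG00000104267; GRCh37 chromosome 8, 86376197 to 86393722, plus strand), the cytosolic carbonic anhydrase that supplies bicarbonate for chloride exchange, stood highest in RKO and lowest in HT55. RKO non-LRCs held 16.1, 14.9, 16.3 and 18.6 CPM (16.5 ± 1.54), more than SW948 with 14.8, 9.47, 9.89 and 11.4 CPM (11.4 ± 2.42, log2 difference 0.53, adjusted p = 0.0430). SW948, HCT15 (9.88 ± 1.87 CPM) and DLD1 (8.99 ± 1.25 CPM) were not called different as neighbors. SW48 held 3.18 ± 1.62 CPM, 1.5 log2 units under DLD1 (adjusted p = 5.36e-06). HT55, the line with most SLC26A3, held 1 CA2 read over its 4 non-LRC libraries and 2 over its 4 LRC libraries. CA1 (ENSG00000133742; GRCh37 chromosome 8, 86239837 to 86291243, minus strand), the carbonic anhydrase most typical of mature colonocytes, never exceeded 4 reads in a library and totaled 46 reads over all 64.

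The hydrolases among the members, ALPI and SI, were scarce. ALPI (ENSG00000163295; GRCh37 chromosome 2, 233320835 to 233325463, plus strand), the intestinal alkaline phosphatase, reached 3.30, 2.70, 3.23 and 2.96 CPM in SW948 non-LRCs (3.05 ± 0.273). HCT15 lay 1.11 log2 units lower at 1.43 ± 0.645 CPM (adjusted p = 0.0153), and no read was found in RKO. ALPI has near-identical relatives, ALPP and ALPG, so reads may have been lost or shared between them. SI (ENSG00000090402; GRCh37 chromosome 3, 164696686 to 164796284, minus strand), the sucrase-isomaltase of small-intestinal enterocytes, held 18 reads in all 64 libraries, 16 of them in SW948.

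Across the 6 lines, LRCs held more AQP8, SLC26A3 and CDHR5 and less VIL1 than non-LRCs, while FABP1 and ALPI were within their errors of no change. Each of these 48 libraries entered 1 fit with cell line as a covariate, which asks whether the little-dividing cells differ from the cycling cells whatever the line. AQP8 rose 2.98-fold (log2 1.58 ± 0.32, SE, adjusted p = 0.000413). SLC26A3 rose 1.78-fold (log2 0.83 ± 0.26, adjusted p = 0.0170). CDHR5 rose 1.33-fold (log2 0.41 ± 0.15, adjusted p = 0.0418), and VIL1 fell to 0.811 of its non-LRC level (log2 -0.30 ± 0.10, adjusted p = 0.0241). The other 4 members tested missed the threshold: GUCA2A at log2 0.49 ± 0.23 (adjusted p = 0.130), CA2 at 0.21 ± 0.13 (0.266), ALPI at 0.14 ± 0.25 (0.741) and FABP1 at -0.06 ± 0.12 (0.769). Thus 4 of 8 members tested passed, 3 higher and 1 lower, where 22.9% of all genes tested passed, 12.2% higher and 10.7% lower, and the median log2 difference was 0.31 for the members and 0.01 for all genes. AQP8 entered the fit through HT55 alone, where it reached 10 reads in 4 LRC and 2 non-LRC libraries, so its call adds nothing to that count, and among the other 7 members 3 passed, 2 higher and 1 lower, with a median of 0.21. In bulk RNA, fewer cells of a type and less RNA per cell cannot be told apart. Of 8 stromal and immune markers 7 were counted, and their summed level, most of it CD68, was higher on the whole in LRCs: 53.9 to 77.9 CPM against 48.5 to 59 in SW948, 66.5 to 108 against 46.0 to 84.7 in SW48, 7.63 to 18.6 against 4.58 to 8.49 in DLD1 and 14.2 to 32.3 against 7.76 to 13.0 in HCT15. PTPRC, a leukocyte marker, had group means of at most 0.029 CPM outside SW48, where its means were 14.1 CPM (LRCs) and 15.5 CPM (non-LRCs). All samples were cultured cancer cell lines, so the levels of these markers are not read as a share of stromal or immune cells. The part of these markers in the members' results was not tested.

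Without the 3 sorted libraries that stood apart (both HT55 replicate 2 libraries and SW948 LRC replicate 4), 5 members passed, where 26.4% of all genes did. AQP8 again entered through HT55 alone, so its call adds nothing to that count. SLC26A3 then stood at log2 1.53 ± 0.19, AQP8 at 1.97 ± 0.35, CDHR5 at 0.50 ± 0.16 (adjusted p = 0.0180), VIL1 at -0.34 ± 0.11 (0.0159) and GUCA2A at 0.79 ± 0.22 (0.00720). The SLC26A3 and AQP8 calls rested on HT55. Without that line 1 member, VIL1, passed, SLC26A3 stood at log2 0.14 (adjusted p = 0.808), and AQP8 no longer had enough reads for a test. The SLC26A3 call was lost without replicate 1 (log2 0.53, adjusted p = 0.291), replicate 3 (0.84, 0.0624) or replicate 4 (0.70, 0.113). The VIL1 call was lost without replicate 1 (log2 -0.26, adjusted p = 0.129), replicate 3 (-0.30, 0.0843), DLD1 (-0.27, 0.115) or HCT15 (-0.17, 0.0951). The CDHR5 call was lost without replicate 1 (adjusted p = 0.172), 3 (0.138) or 4 (0.115) and without any 1 line but HCT15 (0.0518 to 0.191). CA2 passed only when RKO was left out (log2 0.44 ± 0.13, adjusted p = 0.0193).

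**Figure D2:**
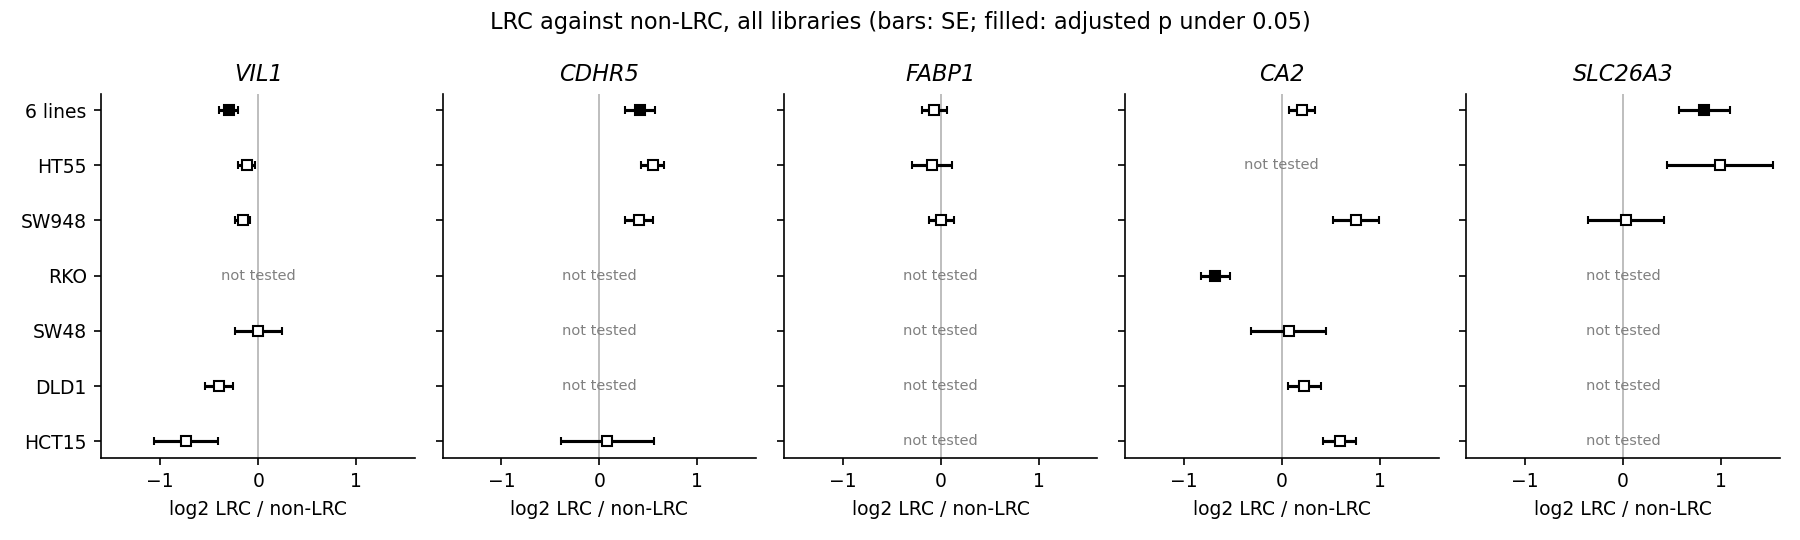
Log2 difference of LRCs from non-LRCs (horizontal, with SE bars) for VIL1, CDHR5, FABP1, CA2 and SLC26A3 over the 6 lines together and in each line alone; filled points have an adjusted p under 0.05, and lines with too few reads are marked as not tested. VIL1 lies left of 0 across the lines and CDHR5 and SLC26A3 lie right of it, while CA2 lies at -0.68 in RKO and at 0.76 in SW948.

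The same-numbered pairs of libraries, counted where either held at least 10 reads, showed the direction in each line. The numbers did not pair the libraries of SW948 or RKO, so pairs there share only a number. VIL1 was lower in LRCs in 18 of 21 pairs, and in every pair of HT55, SW948, DLD1 and HCT15. AQP8 was higher in LRCs in 4 of 4 pairs, SLC26A3 in 6 of 8, CDHR5 in 11 of 15 and GUCA2A in 6 of 7. A pair of a scarce member could enter through its higher library alone. The 3 CDHR5 pairs of DLD1 and the 3 GUCA2A pairs of SW948 entered through the LRC library in this way. So did AQP8 pairs 3 and 4 of HT55 and SLC26A3 pair 2 of SW948. The share of pairs over all genes is not given. Counts of scarce members therefore lean toward the higher side by construction. FABP1 was lower in 7 of 9 pairs, 4 of them from HT55. ALPI was higher in 5 of 10 pairs, an even division.

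In HT55, the line with the most SLC26A3, AQP8 and GUCA2A, these transcripts and CDHR5 had higher means in LRCs, but no member passed in the 8 libraries together. SLC26A3 held 382, 523, 262 and 326 CPM in LRCs (373 ± 111, n = 4) against 80.8, 491, 98.4 and 79.5 CPM in non-LRCs. Only non-LRC replicate 2 reached the LRC range, and the groups overlapped through it. The fitted difference was log2 0.99 ± 0.54 with all 8 libraries (adjusted p = 0.727) and 2.12 ± 0.19, or 4.36-fold, without HT55 non-LRC replicate 2 (adjusted p = 0.000126).

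AQP8 in HT55 held 49, 18, 22 and 42 reads in LRCs (3.53, 1.51, 1.27 and 3.20 CPM) and 10, 18, 3 and 6 reads in non-LRCs (0.725, 1.38, 0.232 and 0.444 CPM). The groups overlapped again through non-LRC replicate 2. The difference was log2 1.76 ± 0.50 (adjusted p = 0.507), and 2.32 ± 0.49 without that library (0.0199). CDHR5 held 88.5, 63.6, 77.5 and 88.8 CPM in HT55 LRCs (79.6 ± 11.9), each above the 50.3 to 62.7 CPM of the non-LRC libraries. The groups did not overlap, and the difference was log2 0.54 ± 0.12 (adjusted p = 0.496), or 0.62 ± 0.12 without HT55 non-LRC replicate 2 (0.0142).

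The remaining HT55 members that could be tested moved less, and CA2, ALPI, CA1 and SI had too few reads. GUCA2A held 3.45, 2.94, 4.79 and 3.28 CPM in LRCs against 1.67, 3.98, 2.32 and 2.74 CPM in non-LRCs, at log2 0.45 ± 0.27 (adjusted p = 0.751), or 0.72 ± 0.25 without HT55 non-LRC replicate 2 (0.151). FABP1 held 303, 188, 311 and 332 CPM in LRCs against 329, 196, 336 and 352 in non-LRCs. In each numbered pair the LRC library was the lower by a small step, and both replicate 2 libraries lay far under the rest (log2 -0.09 ± 0.20, adjusted p = 0.946). VIL1 stood at 934 ± 52.6 CPM in LRCs, and at 1017 ± 40.7 in non-LRCs (log2 -0.12 ± 0.09, adjusted p = 0.803). Over all 13391 genes tested in HT55, 0.0% passed edgeR's test, with 1005 genes at an unadjusted p under 0.05 and 37 genes passing by DESeq2. Without HT55 non-LRC replicate 2, 3 of 6 members tested passed, where 3.92% of genes did, and without both replicate 2 libraries the same 3 passed, where 6.13% did. These were SLC26A3, AQP8 and CDHR5. AQP8 met the read filter mainly through its LRC libraries, so its call adds nothing to these counts. The stromal and immune markers summed to 29.5 to 34.4 CPM in HT55 LRCs against 18.0 to 31.8 in non-LRCs, most of it CD68, and their part in these results was not tested.

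**Figure D3:**
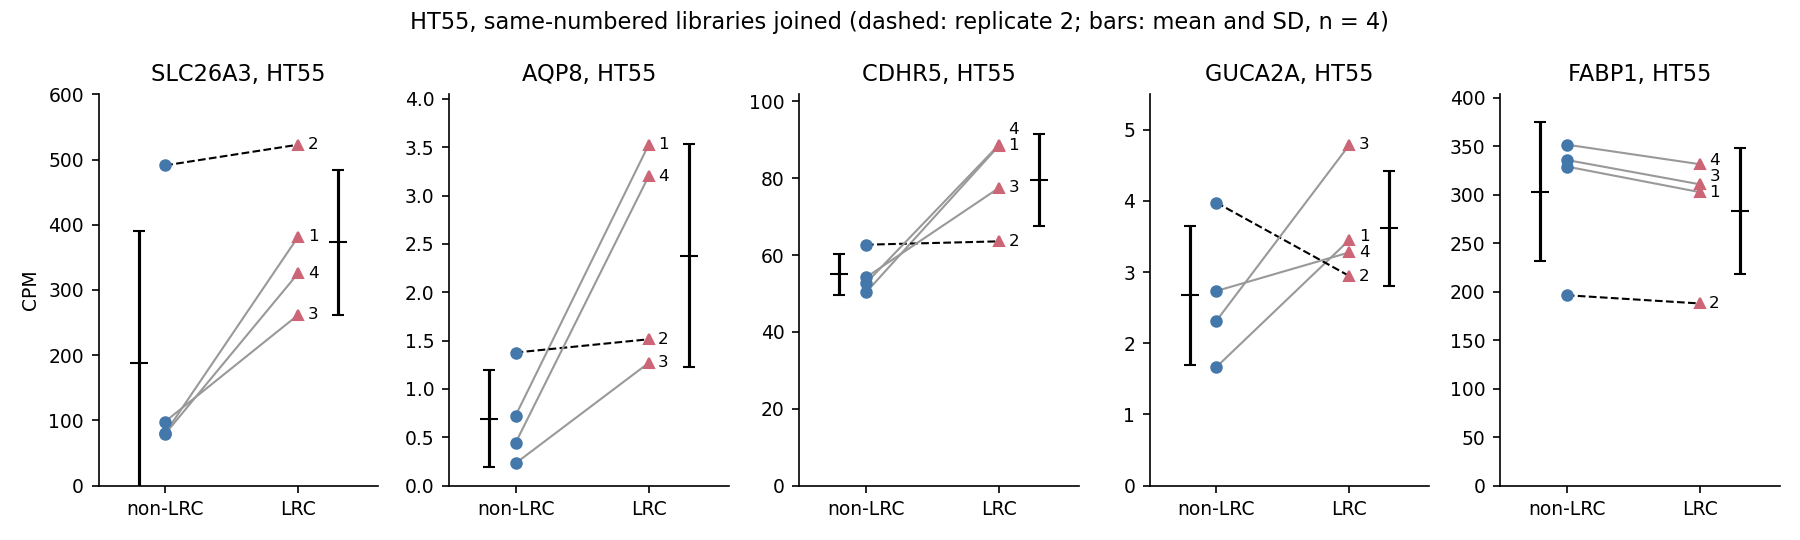
CPM (vertical) of SLC26A3, AQP8, CDHR5, GUCA2A and FABP1 in the 4 HT55 non-LRC and 4 HT55 LRC libraries, with a line joining each numbered pair, replicate 2 dashed, and bars for mean and SD (the lower SLC26A3 bar is cut at 0). The SLC26A3 value of non-LRC replicate 2, 491 CPM, lies with the LRC libraries, and the other 3 non-LRC libraries lie near 86.2 CPM.

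SW948 resembled HT55 in direction for CDHR5, higher in LRCs, and for VIL1, lower in LRCs, and FABP1 changed little in both lines. SLC26A3 had a higher mean in LRCs in HT55 and stayed level in SW948. CA2 could be tested in SW948 and not in HT55. CDHR5 held 45.9, 41.3, 47.1 and 27.2 CPM in LRCs against 32.9, 29.4, 28.7 and 31.6 CPM in non-LRCs. LRC replicate 4, the library nearest to a non-LRC library, was the only LRC value inside or under the non-LRC range. The difference was log2 0.40 ± 0.14 (adjusted p = 0.204), and 0.56 ± 0.08 without SW948 LRC replicate 4 (0.000852). CA2 held 26.8, 20.1, 20.3 and 10.2 CPM in LRCs against 14.8, 9.47, 9.89 and 11.4 CPM in non-LRCs, with replicate 4 again the only LRC value within the non-LRC range. Its difference was log2 0.76 ± 0.23 (adjusted p = 0.167), and 0.98 ± 0.15, or 1.97-fold, without that library (0.000907).

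Among the other SW948 members, VIL1 held 837, 821, 752 and 935 CPM in LRCs against 898 to 963 CPM in non-LRCs (log2 -0.16 ± 0.07, adjusted p = 0.293). FABP1 stood at 334 ± 67.2 CPM in LRCs and 333 ± 42.0 in non-LRCs, and ALPI at 3.13 ± 0.332 and 3.05 ± 0.273 CPM. SLC26A3 stayed near 1 CPM in both (1.08 ± 0.518 and 1.03 ± 0.494). GUCA2A held 0.668, 0.853, 0.629 and 0.155 CPM in LRCs against 0.300 to 0.450 in non-LRCs, too few reads for a test in this line alone, as for AQP8, CA1 and SI. Over 13674 genes 0.0% passed in SW948 (2350 at an unadjusted p under 0.05, 244 by DESeq2), and without SW948 LRC replicate 4 2 of 6 members passed, where 14.5% of genes did.

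In RKO only CA2 could be tested, and it fell in LRCs. LRC libraries held 8.02, 8.04, 12.2 and 12.8 CPM (10.3 ± 2.58) against 16.1, 14.9, 16.3 and 18.6 CPM in non-LRCs. The groups did not overlap, and the LRC level was 0.625 of the other (log2 -0.68 ± 0.15, adjusted p = 0.00175), a call that held with each replicate left out. In RKO 41.5% of genes passed. CD68 made the stromal and immune sum high in this line, at 1242 to 1571 CPM in LRCs against 992 to 1146 in non-LRCs, and its part in the CA2 result was not tested.

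In HCT15 CA2 went the other way. LRC libraries held 17.3, 16.2, 13.4 and 11.7 CPM against 9.95, 12.4, 7.97 and 9.19 CPM in non-LRCs, higher in each of 4 pairs. The ranges overlapped only through non-LRC replicate 2 and LRC replicate 4, and the difference was log2 0.59 ± 0.16 (adjusted p = 0.124). Same-numbered HCT15 libraries deviated together, and with the number as a block CA2 passed (log2 0.59 ± 0.11, adjusted p = 0.00126). VIL1 held 53.5, 54.1, 117 and 135 CPM in HCT15 LRCs against 119, 100, 190 and 199 CPM in non-LRCs. Replicates 3 and 4 were the higher in both populations. Without the block the difference was log2 -0.74 ± 0.33 (adjusted p = 0.283), and with it -0.80 ± 0.08 (4.57e-06). CDX2, a known intestinal regulator, moved with these numbers, at 145, 157, 298 and 332 CPM in LRCs against 330, 265, 506 and 477 in non-LRCs, and its part in the VIL1 result was not tested. CDHR5 (log2 0.08 ± 0.47) and ALPI (-0.53 ± 0.47) did not pass. Thus 0 of 4 members passed without the block, where 0.977% of genes did, and 2 of 4 passed with it, where 21.3% of genes did. AQP8, SLC26A3, FABP1, GUCA2A, CA1 and SI had too few reads for a test in HCT15.

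In DLD1, VIL1 held 68.2, 65.1, 91.6 and 97.0 CPM in LRCs against 106, 87.1, 117 and 123 CPM in non-LRCs. The ranges overlapped but each pair fell, giving log2 -0.40 ± 0.14 (adjusted p = 0.0821). With the replicate number as a block the difference was -0.41 ± 0.05 (7.05e-07). Same-numbered DLD1 libraries deviated together, but replicates 1 and 2, and 3 and 4, also lay nearest each other within each population. CA2 held 12, 12.8, 7.64 and 9.20 CPM in LRCs against 9.09, 10.7, 8.11 and 8.05 in non-LRCs (log2 0.23 ± 0.16, adjusted p = 0.377). Neither of these 2 members passed without the block, where 14.6% of genes did, and VIL1 alone passed with it, where 33.8% did. CDHR5 in DLD1 rested on 19, 13, 9 and 11 reads in LRCs and 1, 4, 3 and 4 reads in non-LRCs. The groups did not overlap, and the line's own filter left it untested, while the fit of all 12 groups gave log2 2.11 (adjusted p = 0.129).

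In SW48, where 0.796% of genes passed, neither VIL1 nor CA2 did. VIL1 held 2.91, 4.21, 2.98 and 3.47 CPM in LRCs against 3.77, 4.71, 2.50 and 2.69 in non-LRCs, fully overlapping (log2 -0.00 ± 0.24, adjusted p = 0.999). CA2 held 2.50, 5.61, 2.89 and 2.29 CPM in LRCs against 2.65, 5.59, 2.32 and 2.15 in non-LRCs (log2 0.07 ± 0.38, adjusted p = 0.955). Replicate 2 was the highest in both populations. In SW48, DLD1 and RKO the members not named in a test had too few reads for one.

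**Figure D4:**
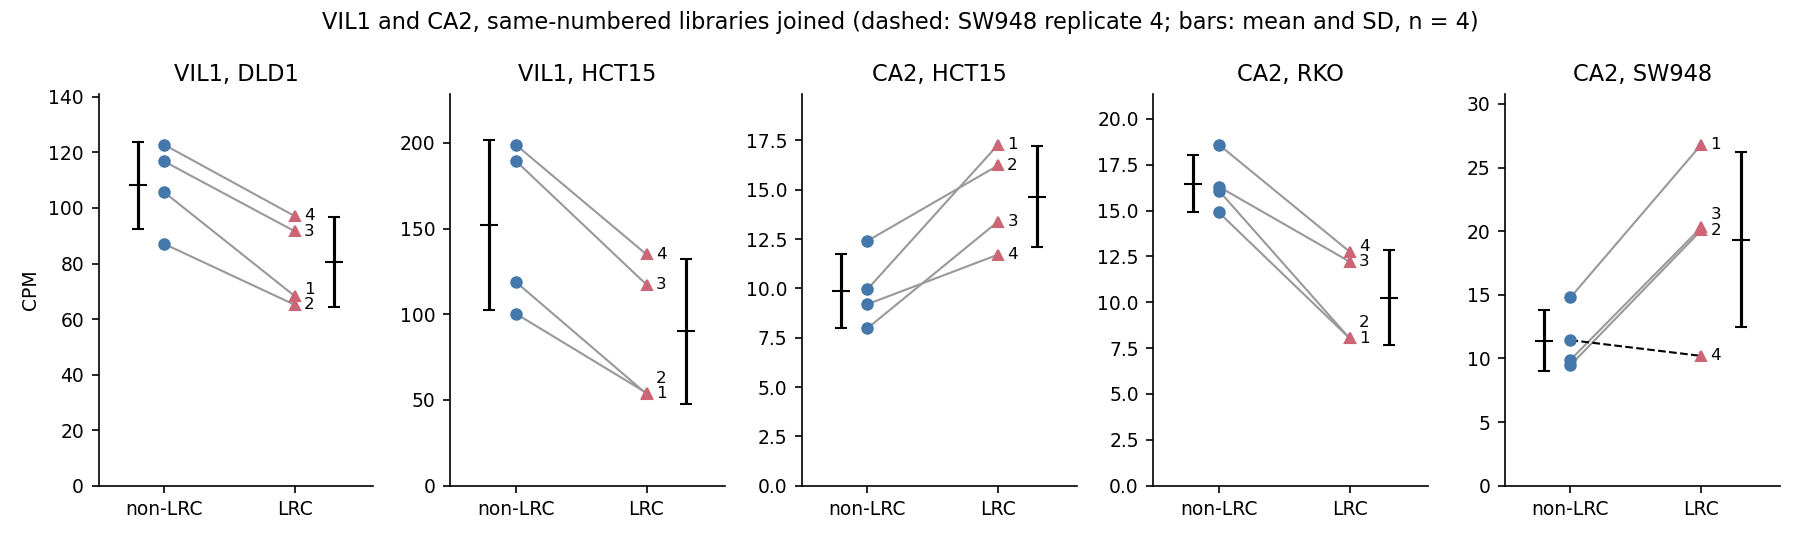
CPM (vertical) of VIL1 in DLD1 and HCT15 and of CA2 in HCT15, RKO and SW948, in 4 non-LRC and 4 LRC libraries each, with a line joining each numbered pair, SW948 replicate 4 dashed, and bars for mean and SD. VIL1 falls from non-LRC to LRC in all 8 pairs, and CA2 rises in 4 of 4 HCT15 pairs and falls in 4 of 4 RKO pairs.

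Whether the LRC difference itself changed from line to line was tested with the interaction of line and population. CA2 was the 1 member of 8 that passed (adjusted p = 0.0279), where 14.3% of all genes did. It passed in neither of the fits without replicate 1 or replicate 3, which called 0 members, and it passed without the 3 libraries that stood apart (adjusted p = 0.00310), as SLC26A3 then did (0.0177). With the replicate number as a block, 4 members passed: VIL1 (adjusted p = 1.70e-05), CA2 (0.000124), FABP1 (0.0184) and CDHR5 (0.0433), where 33.6% of all genes did. AQP8 (adjusted p = 0.993 without the block) held 10 reads or more in no line but HT55.

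The members were set beside 80 further genes of the absorptive program, of which 62 could be tested across the lines. Of these 62 genes 13 passed, 11 higher and 2 lower in LRCs, or 21.0% against 22.9% of all genes, with a median log2 difference of 0.12. Of 10 brush border genes 2 rose, MYO1E (log2 0.18, adjusted p = 0.000483), a class I myosin, and CDHR2 (0.48, 0.0232), the partner of CDHR5 in the tip links. Of 11 hydrolases and peptidases 2 rose, MGAM (0.75, 0.00433), a brush border glucosidase, and MME (0.69, 0.00605), a membrane peptidase. MGAM had a mean under 1 CPM in the HT55 and SW948 groups. Of 13 transporters 2 rose, SLC51A (0.72, 0.00448), a chain of the basolateral bile acid exporter, and SLC26A2 (0.23, 0.0375), a sulfate transporter, and 1 fell. The one that fell was SLC9A3 (log2 -0.96, adjusted p = 0.00226), the apical sodium and hydrogen exchanger that works beside SLC26A3, at 77.2 ± 35.5 CPM in HT55 non-LRCs and 34.9 ± 8.04 CPM in HT55 LRCs (94.6 ± 8.76 and 38.7 ± 2.74 without the replicate 2 libraries).

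Of 11 lipid-handling genes 3 rose and 1 fell. APOA1 (log2 1.27, adjusted p = 0.00442) and MTTP (0.69, 0.0434), which serve lipoprotein assembly, were among the higher, and RBP2 (-0.75, 0.0427), a retinol-binding protein, was the lower. Of 17 genes of the colonocyte surface and metabolism 2 rose. They were CEACAM7 (log2 1.63, adjusted p = 3.42e-05), an adhesion molecule of the upper crypt, and AQP3 (0.51, 0.00251), a basolateral water channel. CEACAM7 stood at 9.19 ± 4.78 CPM in HT55 LRCs against 2.53 ± 1.68 in non-LRCs and at 4.76 ± 2.11 against 1.91 ± 0.765 CPM in SW948. The relatives of ALPI also rose, ALPP at log2 0.86 ± 0.21 (adjusted p = 0.00253) and ALPG at 1.35 ± 0.29 (0.000611). In HT55 non-LRCs ALPG held 1.59, 8.64, 1.85 and 1.48 CPM, with replicate 2 apart as for SLC26A3. Without the 3 sorted libraries that stood apart, SLC9A3 was at log2 -1.04, CEACAM7 at 2.09, ALPG at 1.87 and OLFM4, a crypt stem marker, at 1.56, and all 4 passed.

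Of 14 intestinal transcription factors tested 4 rose and 2 fell across the lines, where 22.9% of all genes tested passed. The same share applies to the other lists of this paragraph. KLF4 (log2 0.38, adjusted p = 3.20e-05), PRDM1 (0.87, 3.55e-05) and ELF3 (0.46, 0.000129), all linked to epithelial differentiation, were higher in LRCs. HNF4A was slightly lower (log2 -0.15 ± 0.04, adjusted p = 0.00832), and CDX2 (-0.14, 0.237) did not pass. Markers of other intestinal cells moved as well: of 4 goblet and endocrine genes TFF3 rose (0.47, 0.00178) and AGR2 fell (-0.17, 0.0394), and of 8 crypt stem markers OLFM4 (1.32, 2.41e-05) and SMOC2 (0.96, 0.0131) rose. OLFM4 went from 47.7 ± 4.29 CPM in SW948 non-LRCs to 125 ± 70.3 CPM in SW948 LRCs (150 ± 59.7 without replicate 4). The 6 epithelial identity genes did not pass, and of 4 stromal and immune genes CD68 rose (log2 0.77). The part of these genes in the members' differences was not tested.

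Levels of HNF4A and CDX2 also set the lines apart. HNF4A held 180 to 212 CPM in HT55 and 173 to 222 in SW948, 32.1 to 79.0 in DLD1, SW48 and HCT15, and at most 0.188 in RKO. CDX2 held 17.3 to 22.5 CPM in RKO and 31.5 to 50.5 in SW48, against 145 to 506 in the other lines. The line with the least of both HNF4A and CDX2 was RKO, where 1 member reached 1 CPM.

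Over the 48 sorted libraries, which share lines and replicate numbers and so are not independent points, the members formed groups by Pearson's r of log2 CPM. SLC26A3 and GUCA2A ran together (r = 0.951), as did VIL1 and CDHR5 (0.892) and FABP1 and GUCA2A (0.858). CA2 ran against SLC26A3 (-0.856) and AQP8 (-0.836). Among all genes tested, those most like each member were TLDC2 (0.989), FOXA3 (0.987) and PLEKHB1 (0.986) for VIL1, CYTH1 (0.971), RAB32 (0.968) and FUOM (0.956) for CDHR5, and TOX3 (0.995), PYCARD (0.993) and CYP2B6 (0.993) for FABP1. SLC26A3 was most like F13A1 (0.984), BMP6 (0.981) and CFAP20DC (0.980), GUCA2A like PRKAA2 (0.979) and BMP6 (0.970), and AQP8 like SLA (0.904), KL (0.896) and FADS6 (0.895). CA2 was most like ZNF329 (0.962), ABCC4 (0.960) and SLC7A2 (0.957), and ALPI like PCOLCE2 (0.937), CYB5R2 (0.924) and AQP5-AS1 (0.916). These values mostly describe the differences between lines.

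The 16 DLD1 controls asked whether the dye or the time in culture moved the members. VIL1, CDHR5, CA2 and ALPI had enough reads to be tested, and the other members were at most 0.573 CPM. The comparisons share control groups, so their values are not independent of one another. Replicates 1 and 2 differed from replicates 3 and 4 in several groups, and no label says why, so values within each pair of replicates are given where they matter. Reads outside genes made up 8.96% to 14.8% in the day 1 libraries and 5.19% to 8.35% on day 5. The stromal and immune sum was 14.2 to 29.3 CPM with CFSE on day 1, against 5.0 to 10.3 with DMSO on day 1. Of 6 crypt stem markers tested 4 fell with CFSE on day 1, where 21.8% of all genes tested passed. The part of these in the members' results was not tested.

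VIL1 was lower with CFSE and higher at the later time. It held 67.8, 71.6, 79.8 and 155 CPM with DMSO on day 1 and 11.3, 13.6, 23.7 and 23.6 CPM with CFSE on day 1. On day 5 it held 156, 129, 163 and 163 CPM with DMSO and 46.0, 52.6, 101 and 104 CPM with CFSE. At neither time did the CFSE and DMSO libraries overlap, and the DMSO day 1 replicate 4 library lay with the day 5 values. On day 1 the CFSE level was 0.198 of the DMSO level (log2 -2.34 ± 0.32, adjusted p = 0.000403), or log2 -2.03 without DMSO day 1 replicate 4 (0.000801). It was -2.52 in replicates 1 and 2 and -2.25 in replicates 3 and 4. On day 5 the difference was log2 -1.01 ± 0.30 (adjusted p = 0.0582), and -1.0 without DMSO day 1 replicate 4 (0.0188). From day 1 to day 5 VIL1 rose 4.01-fold with CFSE (log2 2.0 ± 0.31, adjusted p = 0.000301). Same-numbered CFSE libraries of the 2 days deviated together, and blocking on the number gave a rise of 1.98 (3.45e-05). With DMSO the rise was log2 0.67 ± 0.30 (0.0982), and 0.94 without DMSO day 1 replicate 4 (0.0138).

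CDHR5 moved in the same directions as VIL1. It held 2.99, 2.60, 3.04 and 10.1 CPM with DMSO and 0.755, 0.885, 1.99 and 1.89 CPM with CFSE on day 1. On day 5 it held 12.5, 6.08, 9.12 and 10.6 CPM with DMSO and 2.01, 1.37, 3.94 and 4.18 CPM with CFSE. CFSE and DMSO libraries did not overlap at either time. The CFSE difference was log2 -1.71 ± 0.47 on day 1 (adjusted p = 0.0180), a call that was lost without DMSO day 1 replicate 4 (-1.06, 0.0745), and -1.73 ± 0.45 on day 5 (0.0359), where it was kept without that library (-1.72, 0.00488). The day 1 call was also lost without replicate 1 (0.0817), 2 (0.0666) or 4 (0.0563), and in replicates 3 and 4 alone (0.0758). The day 5 call was lost without replicate 1 (0.322), 2 (0.157) or 3 (0.121), and in replicates 3 and 4 alone (0.363). The rise with time was log2 1.0 ± 0.43 with DMSO (0.0929), 1.61 without DMSO day 1 replicate 4 (0.00310), and 0.98 with CFSE (0.114). With the replicate number as a block the rise with CFSE passed (0.97, 0.0370).

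CA2 ran the other way, and mostly in 2 replicates. It held 83.5, 88.3, 15.8 and 17.1 CPM with CFSE on day 1, against 19.1, 19.5, 13.6 and 8.39 CPM with DMSO. On day 5 it held 35.0, 31.2, 14.7 and 12.7 CPM with CFSE and 17.7, 15.4, 9.29 and 8.15 CPM with DMSO. Replicates 1 and 2 were far above replicates 3 and 4 with CFSE on day 1, so that the CFSE libraries overlapped the DMSO libraries. The day 1 difference was log2 1.80 ± 0.52 over all libraries (adjusted p = 0.0224), 1.54 without DMSO day 1 replicate 4 (0.0627), 2.12 in replicates 1 and 2 and 0.63 in replicates 3 and 4 (0.144). In replicates 3 and 4 without that library it was 0.28 (adjusted p = 0.290), and the call was also lost without replicate 1 (0.118) or 2 (0.148). On day 5 the CFSE difference was log2 0.90 over all libraries (adjusted p = 0.309), 1.02 in replicates 1 and 2 (0.000340) and 0.63 in replicates 3 and 4 without DMSO day 1 replicate 4 (0.0103). From day 1 to day 5 with CFSE it was -1.22 over all libraries (adjusted p = 0.0683), -1.49 in replicates 1 and 2 (1.97e-06), -0.40 in replicates 3 and 4 without that library (0.0248) and -1.01 with the block (0.00840). With DMSO it was -0.31 over all libraries (adjusted p = 0.678), -0.38 in replicates 1 and 2 (0.0199) and -0.74 in replicates 3 and 4 without that library (0.00479).

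ALPI was scarce in the controls, with 0, 0.124, 0.516 and 1.61 CPM with DMSO on day 1, at most 0.192 CPM with CFSE on day 1, 0.467 to 1.51 CPM with DMSO on day 5 and 0.186 to 0.639 CPM with CFSE on day 5. It passed none of the tests with all 16 libraries. Without DMSO day 1 replicate 4 it rose with time, by log2 2.18 with DMSO (adjusted p = 0.0155) and by 2.18 with CFSE (0.0349), and with the block it rose with CFSE by 2.24 (0.0387).

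In counts, 0 of 4 members passed from day 1 to day 5 with DMSO, where 25.5% of 14518 genes did, and 3 passed without DMSO day 1 replicate 4, where 42.1% did. With CFSE 1 of 4 passed for time, against 39.3% of genes, and 4 of 4 with the block, against 42.3%. For the dye, 3 of 4 passed on day 1, against 21.8% of genes, and 1 of 4 without DMSO day 1 replicate 4, against 18.0%. On day 5, 1 of 4 passed for the dye, against 5.13% of genes. The interaction of dye and day called 0 of 4, against 0.999% of genes (2474 genes at an unadjusted p under 0.05), with VIL1 at log2 1.33 ± 0.42 (adjusted p = 0.126). DESeq2 called 1 member for it. CDX2 moved in the same direction as VIL1, from 72.8, 75.0, 75.6 and 295 CPM with DMSO to 44.8, 48.9, 54.5 and 53 CPM with CFSE on day 1 (log2 -1.32, adjusted p = 0.0147) and up with time in both (1.36, 0.0145; 1.55, 0.00311). The 295 CPM is DMSO day 1 replicate 4, the library that lay nearest to a day 5 library. Without it the DMSO day 1 values were 72.8 to 75.6 CPM, above those with CFSE. The CDX2 fits include that library, and the part of CDX2 in the VIL1 result was not tested.

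**Figure D5:**
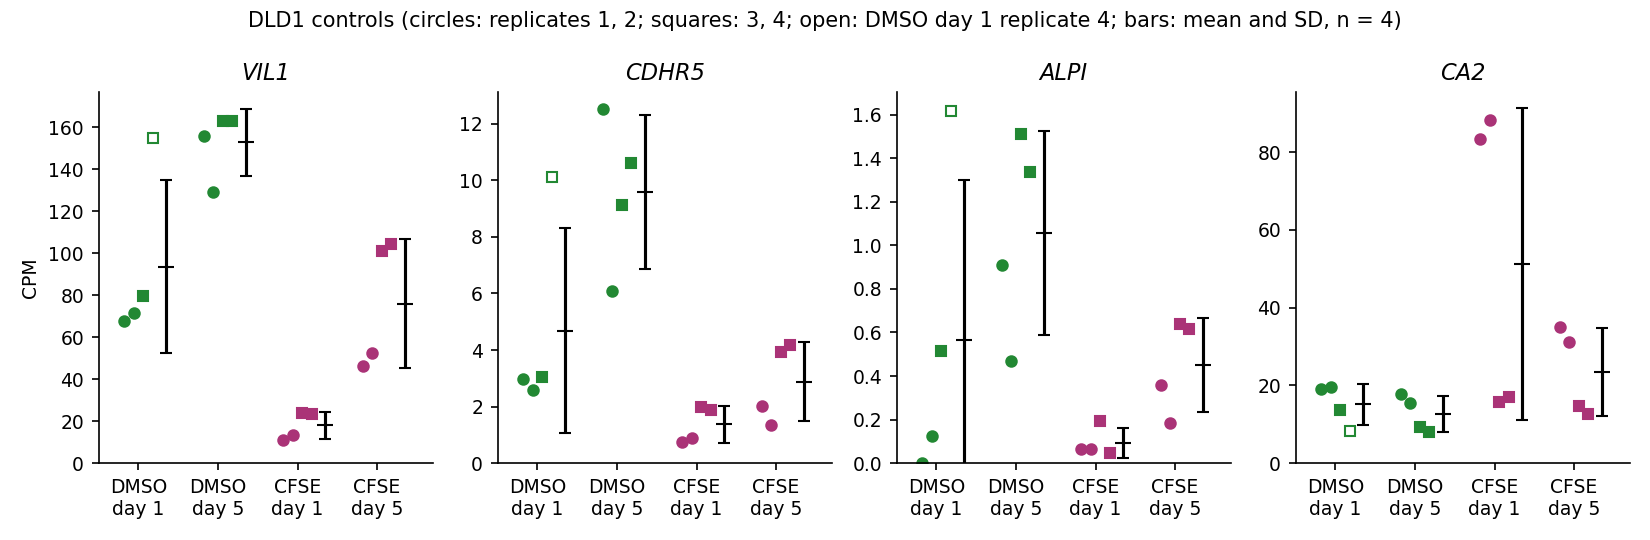
CPM (vertical) of VIL1, CDHR5, ALPI and CA2 in the 4 DLD1 control groups (horizontal), with replicates 1 and 2 as circles, 3 and 4 as squares, DMSO day 1 replicate 4 as an open square, and bars for mean and SD, some cut at 0. VIL1 and CDHR5 lie lower with CFSE than with DMSO at both times, and the high CA2 values with CFSE on day 1 are replicates 1 and 2.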

How the data were processed

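The 64 deposited files hold whole-number counts per Ensembl gene, not normalized by the authors, from single-end reads of 50 bases aligned to hg19 (GRCh37). The submitters' processing notes name TopHat, HTSeq and DESeq without versions, and the annotation release is not given in the sources used here. Reads ambiguous between genes (1.52% to 2.21%) or outside genes (5.19% to 14.8%) were left out. Symbols and GRCh37 positions were matched for 47098 of 54127 genes. Groups were taken from the sample labels.

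Counts were analyzed in R 4.3.3 with edgeR 4.0.16. A gene entered a fit when 4 or more of its samples held 10 counts or more, libraries were scaled by TMM, and two-sided quasi-likelihood tests were adjusted by Benjamini-Hochberg over all genes tested, with a threshold of 0.05. The 6 lines were tested together with line as a covariate and each alone, and the controls were fitted as 4 group means. Levels are CPM scaled over all 64 libraries, and log2 CPM used a prior count of 2. With a median depth of 15063858 reads, values that rest on a few reads are imprecise, and 0 reads means not detected at this depth, with 3 counts as the floor. The steps were tested on simulated data.

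The members and the wider gene lists were chosen with earlier results of these data known. All 10 members are accounted for in every comparison, by a test or as having too few reads. From the wider lists, genes that passed across the lines are named, up to the 3 with the smallest p-values of a list, and for each member the genes most like it. Some genes that this rule names are not reported here. Same-numbered libraries deviated together in HT55 (r 0.257 to 0.538), SW48 (0.25 to 0.673), DLD1 (0.317 to 0.571) and HCT15 (0.375 to 0.637). The replicate number was therefore treated as pairing the samples there, and not in SW948 or RKO. Among the controls this held only between CFSE day 1 and CFSE day 5 (0.188 to 0.343). In DLD1, HCT15 and these controls, replicates 1 and 2 lay nearest each other within each group, as did 3 and 4. Pairing by number was not told apart from a split between these replicates. The check used the correlation of deviations from group means. Where they pair, blocked values stand beside results whose call they change. Alternatives were DESeq2 1.42.0, library sizes without TMM, no filter, 10 counts in every sample, a prior count of 0.5, the replicate block, 1 replicate or line left out, all sorted samples in one fit, and, added after seeing the data, leaving out libraries that stood apart and the controls' replicates by pairs.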

Additional observations from a re-analysis of the deposited data

Results flagged for a closer look

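In 5 of 53 combinations of a member and a group of 4 samples, 1 library lay far from the other 3. Chance alone gives about 1 in 20. SLC26A3 was highest in HT55 non-LRC replicate 2, at 491 CPM, and FABP1 was lowest in the same library, at 196 CPM. CA2 was highest in SW48 non-LRC replicate 2, at 5.59 CPM. VIL1, at 155 CPM, and CDHR5, at 10.1 CPM, were highest in DMSO day 1 replicate 4 of the controls. The LRC difference of CA2 differed between the 6 lines (edgeR's quasi-likelihood test, adjusted p = 0.0279), from log2 -0.68 in RKO to 0.76 in SW948.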

How the results depend on the processing

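Of the values computed again, 674 kept their direction and side of the threshold, 77 newly passed it, 35 no longer passed and 21 changed sign. Every value that changed sign was one not called as reported, and the cause of each change was not tested. Across the lines, 4 of 8 members passed, but 2 of 8 by DESeq2 (SLC26A3 at log2 0.55, adjusted p = 0.302, and VIL1 at -0.24, 0.0886, missed). Without HT55 1 of 6 passed, and without DLD1 2 of 8, where ALPI turned to log2 -0.00196. With 10 counts in every sample no member could be tested, since that filter drops members absent from a line. With a replicate left out, 1 to 4 passed across the lines, 0 to 3 in HT55, 0 to 2 in SW948 and 0 to 2 for the difference between lines. In HT55, 1 of 6 members passed by DESeq2, 2 of 10 without a filter and 1 of 8 with all 48 samples in one fit. In SW948, 2 of 10 passed without a filter, and 1 of 6 with the replicate block, where FABP1 stood at log2 -0.00398. In DLD1, 1 of 2 passed by DESeq2, 2 of 10 without a filter and 1 of 2 with the replicate block. In HCT15, 1 of 4 passed by DESeq2, 2 of 4 with the replicate block and 1 of 8 with all 48 samples in one fit. VIL1 in SW48 was log2 0.00195 with 10 counts in every sample, 0.00859 with the block and 0.00459 with all samples in one fit. For the difference between lines, 2 of 8 members passed by DESeq2 and 2 of 10 without a filter. With the block 4 of 8 passed, and 2 of 8 without the 3 libraries that stood apart. With 10 counts in every sample no member could be tested for that difference or for the level among lines. The share of all genes is not given beside each of these counts, so they are not read as results about the members. Over all genes DESeq2 called 3965 of 16603 across the lines, 3403 of 16603 for the difference between lines and 2173 of 13592 in DLD1.

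The replicate numbers did not pair the SW948 or RKO libraries, nor the control groups (correlations -0.324 to 0.679) other than CFSE day 1 with CFSE day 5, and elsewhere the block values share only a number. In the DLD1 controls 4 members were tested by DESeq2, with the block and in replicates 3 and 4. Without a filter 9 were tested, and in replicates 1 and 2 only 3. The share of all genes is not given beside each count, so these counts are not read as results about the members. Time without dye called 2 members without a filter, 2 with the block and 3 in replicates 1 and 2. In replicates 3 and 4 without DMSO day 1 replicate 4 it called 3. It called 0 to 2 with a replicate left out, and 3 without that library alone. Time with CFSE called 2 by library size alone, 4 without a filter, 4 with the block, 2 in replicates 1 and 2, 4 in replicates 3 and 4 without that library, and 1 to 2 with a replicate left out. The dye on day 1 called 1 in replicates 3 and 4, 1 there without that library, and 1 to 3 with a replicate left out. The dye on day 5 called 2 by DESeq2, 2 without a filter, 2 with the block, 3 in replicates 1 and 2, 0 in replicates 3 and 4, 3 there without that library, and 0 to 2 with a replicate left out. The interaction called 1 by DESeq2, 1 without a filter, 1 with the block, 2 in replicates 1 and 2 and 1 in replicates 3 and 4 without that library. For it CDHR5 was log2 0.03 (0.0342) without a filter and 0.381 in replicates 3 and 4, and CA2 was 0.000446 and 0.343 in replicates 3 and 4 with and without that library. Values that turned with a replicate, or 1 library that stood apart, left out were SLC26A3 (log2 -0.47 to 0.52), ALPI (-0.0494 to 0.11) and FABP1 (-0.0572 to 0.0809) in SW948, CA2 (-0.0123 to 0.11) and VIL1 (-0.10 to 0.12) in SW48, CDHR5 in HCT15 (-0.13 to 0.17), and CDHR5 (-0.67 to 0.20) and ALPI (-0.00480 to 1.93) for the interaction, where ALPI turned without DMSO day 1 replicate 4, an alternative added after seeing the data.

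Over all genes, counts of calls moved by over 1.5 times with DESeq2 in SW48 (105 to 361), HCT15 (137 to 531), the dye on day 5 (745 to 1521) and the interaction of dye and day (145 to 623), and with the block in SW48 (1279), DLD1 (1978 to 4591), HCT15 (2987), SW948 (0 to 501), the difference between lines (2380 to 5584) and the dye on day 5 (1511). Without replicate 2, edgeR called 0 genes in HCT15 (1905 at an unadjusted p under 0.05), for time without dye (3483), for the dye on day 5 (2329) and for the interaction (1111). Calls then went from 3162 to 338 for the dye on day 1, from 5706 to 2858 for time with CFSE and from 105 to 497 in SW48. Where the numbers pair, the block changed no other member's call within a line or for time with CFSE.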
